A study of Homo sapiens with 6 samples.

Results

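The β-catenin destruction complex was examined through 10 genes in D283 Med cells, a line grown from a childhood medulloblastoma, with AMER2 as the member that differed most. The genes were taken by symbol from a table of 31785 rows and were AMER2 and AMER1, APC2 and APC, AXIN2 and AXIN1, GSK3A and GSK3B, CSNK1A1 and CTNNB1. All 10 were present and all 10 passed the filter on low values. RNA sequencing covered 3 libraries labelled as Musashi-1 (MSI1) knockdown and 3 libraries labelled WT, all from D283 Med cells grown in DMEM/F12 medium with serum. Neither the knockdown method, nor any control construct in WT cells, nor the origin of libraries in separate cultures is given by the labels. The p-values therefore set a group difference only against the spread of these 6 libraries within their groups, which may be technical in part.

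In the absence of a Wnt signal, cytoplasmic β-catenin is held by the scaffolds axin and APC, phosphorylated first by casein kinase 1α and then by GSK3, and passed to the proteasome. A Wnt ligand takes this complex to the membrane, β-catenin accumulates, and it activates TCF/LEF target genes in the nucleus, among them AXIN2, which feeds back on the pathway. AMER1 and AMER2 are membrane-bound proteins that bind APC. Activated β-catenin defines a separate subgroup of medulloblastoma, whereas D283 Med is assigned by the study's title to Groups 3 and 4. Musashi-1 is an RNA-binding protein of neural progenitors that acts on the 3′ untranslated regions of its targets, mostly at the level of translation, and APC is a reported target.

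Because the data bear on an RNA-binding protein, the longest annotated 3′ untranslated region of each gene was searched for Musashi-type motifs on the sense strand only. In DNA letters the motifs were GTAGT, its form with a further T (GTTAGT) and its longest form (GTTTAGT). Forms that begin with A in place of G were not searched, so all counts of sites cover the G forms only. Such motifs were common: 60.6% of 11532 tested genes held at least 1, at a median of 0.58 per kb. Of the 10 genes, 6 held 18 sites in all, and APC2, AXIN1, AXIN2 and GSK3A held none of the searched forms in these windows. AMER2 had 6 sites in 7920 bases (0.76 per kb), 3 of them GTAGT and 3 GTTAGT. This untranslated region was longer than that of 97.4% of the genes. APC had 1 site in 2113 bases (0.47 per kb). GSK3B had the highest rate of the 10, with 6 sites in 5465 bases (1.10 per kb), CSNK1A1 had 3, and AMER1 and CTNNB1 had 1 each. The sites of AMER2 and APC are shown (GRCh38, GENCODE 29) with the motif in capitals. A match describes letters, and binding was not measured.
AMER2 site, chr13:25166107-25166129, minus strand: atctcagagGTAGTcttcaagta
AMER2 site, chr13:25165813-25165836, minus strand: ttccctgctGTTAGTtatctgaat
AMER2 site, chr13:25165430-25165452, minus strand: accaaagggGTAGTatggtagac
AMER2 site, chr13:25165373-25165395, minus strand: ggcaagggtGTAGTtcacaggca
AMER2 site, chr13:25163947-25163970, minus strand: accatgcccGTTAGTttttgtatt
AMER2 site, chr13:25162102-25162125, minus strand: aggaaaattGTTAGTaggtttata
APC site, chr5:112845947-112845969, plus strand: tcacatcaaGTAGTtaattatct

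The 250 bases before a start are shown from RefSeq (GRCh38.p14) for AMER2, APC2 and APC. AMER2 was higher in knockdown, APC2 was lower, and APC was lower without passing the test. In RefSeq 9 of the 10 genes had an entry, with 13 windows. AXIN2 had none. The TCF/LEF core CTTTGA, read on both strands, was in none of the 13 windows and in 11.2% of all 35116 windows of the table. The E-box CACGTG, a palindrome read by MYC and MAX among others, was in 2 of the 13 and in 6.34% of all. These were 1 of 2 windows each of APC and APC2. The APC window with the E-box, printed with it in capitals, precedes a start inside the annotated span of the gene. The other APC window, directly before that span, had 56.4% G and C, 12 CpG and no E-box. The printed AMER2 window had 57.2% G and C with 6 CpG, near the median of 58.0% and below that of 11. A further AMER2 window, which overlaps annotated exons of the gene, had 52.4% with 5 CpG. The printed APC2 window had 72.0% with 26 CpG, and the printed APC window 70.0% with 21. Like that of APC, the printed APC2 window lies inside the annotated span of its gene. The APC2 window with the E-box, not printed, overlaps annotated exons of the gene.
AMER2 upstream, chr13:25172289-25172538, minus strand: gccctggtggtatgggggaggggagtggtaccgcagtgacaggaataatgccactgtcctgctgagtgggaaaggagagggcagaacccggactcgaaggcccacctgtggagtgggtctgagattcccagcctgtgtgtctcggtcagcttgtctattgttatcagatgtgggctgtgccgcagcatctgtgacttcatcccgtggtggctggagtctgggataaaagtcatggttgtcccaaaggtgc
APC2 upstream, chr19:1449871-1450120, plus strand: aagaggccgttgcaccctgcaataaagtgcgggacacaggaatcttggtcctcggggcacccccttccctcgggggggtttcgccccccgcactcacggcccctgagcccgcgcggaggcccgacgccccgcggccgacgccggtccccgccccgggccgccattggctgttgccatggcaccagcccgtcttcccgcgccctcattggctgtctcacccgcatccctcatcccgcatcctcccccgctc
APC upstream, chr5:112737635-112737884, plus strand: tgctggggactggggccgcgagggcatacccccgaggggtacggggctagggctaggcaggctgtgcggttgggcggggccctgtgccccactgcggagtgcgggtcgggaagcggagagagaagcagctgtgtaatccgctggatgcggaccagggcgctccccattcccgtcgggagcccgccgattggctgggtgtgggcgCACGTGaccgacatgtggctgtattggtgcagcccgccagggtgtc

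Depth was 18895997 to 24442276 reads per knockdown library and 17299671 to 38790342 per WT library. MSI1 itself had 1385.3, 1197.2 and 1281.2 normalised reads in the libraries labelled knockdown, against 1585.7, 1572.3 and 1377.8 in WT, so the groups overlapped and knockdown held 85.2% of the WT mean. The difference of −0.21 (SE 0.12) on the stabilised log2-like scale missed the threshold (limma, adjusted p = 0.304), and the knockdown groups are therefore named as labelled. Of 7 medulloblastoma and cerebellar lineage markers in the table, OTX2 and MYC averaged 30373 and 23088 normalised reads in knockdown and 23664 and 16640 in WT, neither called. NPR3 fell (7759 in knockdown, 13052 in WT, limma adjusted p = 0.0437), SNCAIP rose (331 in knockdown, 141 in WT, limma adjusted p = 0.0194), ZIC1 averaged 1104 in knockdown and 1092 in WT, and EOMES and BARHL1 were near 0. Markers of immune cells and astrocytes were near 0, with summed levels of at most 8.58 and 8.80 in knockdown and at most 15.4 and 9.98 in WT. Fibroblast markers summed to 716 to 1023 in knockdown and 993 to 1303 in WT, carried by PDGFRB and COL1A1, and endothelial markers to 160 to 313 in knockdown and 162 to 251 in WT. The part of these levels in the results was not tested. In all libraries, more RNA per cell and more cells expressing a gene cannot be told apart.

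In knockdown 2 of the 10 genes were called by limma at an adjusted p under 0.05, AMER2 higher and APC2 lower, where 4.10% of 13558 tested genes were called, 1.78% higher and 2.32% lower. AMER2 was already known to differ when the genes were chosen, so the share of called genes among them is not evidence about the complex. Groups did not overlap for 4 of the 10 genes, AMER2, APC2, APC and GSK3B, against 27.8% of all tested genes. The median difference over the 10 was −0.07, and 0.01 over all tested genes.

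**Figure D1:**
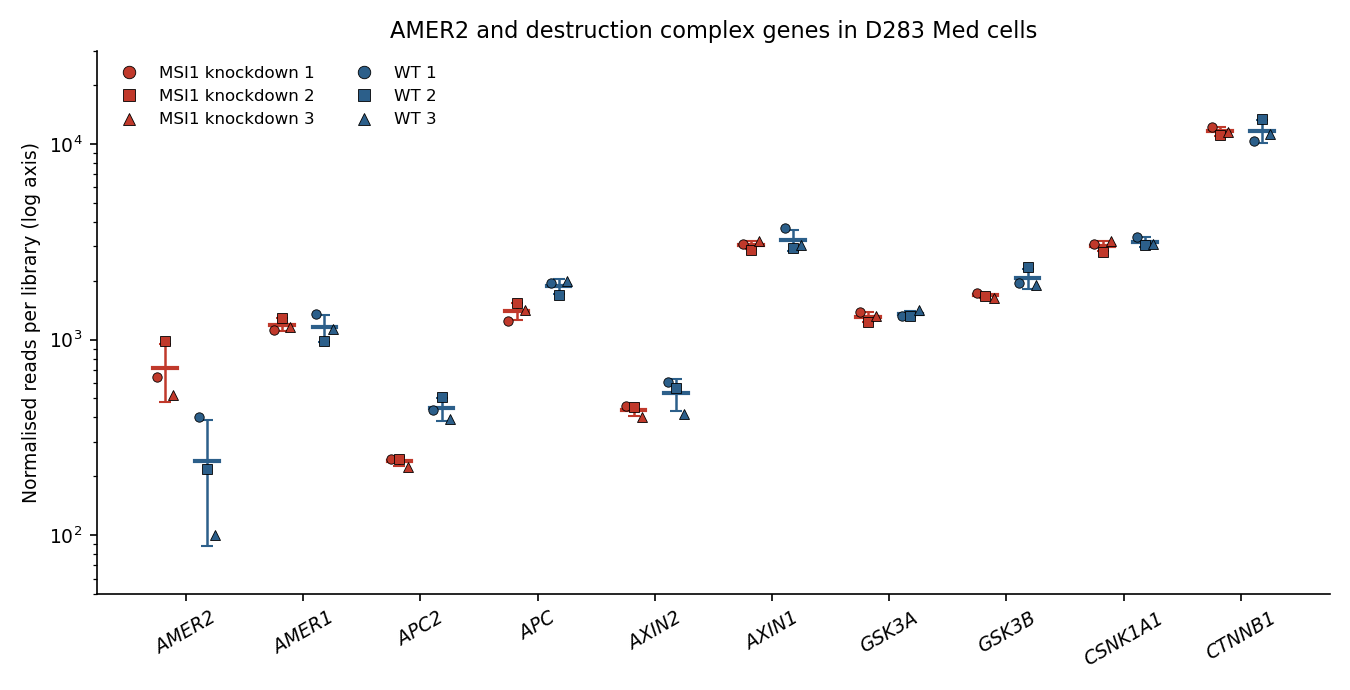
Normalised reads of the 10 genes in each library on a log axis, knockdown left of WT; points are libraries, thick bars the group means and whiskers the SD (n = 3). AMER2 is between 521.5 and 979.6 in knockdown and between 100.6 and 399.7 in WT, while CTNNB1 spans 10385 to 13386 over all 6 libraries.

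AMER2, which brings APC to the plasma membrane and also binds the microtubule end protein EB1, rose about 3-fold. Its span is 25161684 to 25172288 of chromosome 13, minus strand (GRCh38, GENCODE 29), where no other annotated gene overlaps it. It had 644.6, 979.6 and 521.5 normalised reads in knockdown, against 399.7, 217.6 and 100.6 in WT. Every knockdown library was above every WT library, with knockdown 2 the highest and WT 3 the lowest. The means were 715 ± 237 in knockdown and 239 ± 151 in WT (SD, n = 3 each), a ratio of 2.99. These rest on 486 to 779 reads per knockdown library and 131 to 345 per WT library. The difference was 1.34 (SE 0.31, 95% interval 0.67 to 2.02, limma adjusted p = 0.0401). AMER2 was the most variable of the 10 genes, with a coefficient of variation of 33.1% in knockdown and 63.0% in WT, where the other 9 had 3.02% to 10.1% in knockdown, and AXIN2 came next in WT. Its call held in 9 of 15 alternative fits. The call was lost without knockdown 1, 2 or 3 (limma, adjusted p = 0.133, 0.130 and 0.0674), without WT 2 (0.0887), without WT 3 (0.0561, difference 1.00) and with a robust variance estimate (0.0770). All 61 tested genes within 10 Mb had a smaller difference than AMER2, and their median was 0.08.

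AMER1, also called WTX, binds APC, axin and β-catenin and promotes β-catenin degradation. It lies on chromosome X at 64185117 to 64205744, minus strand. It had 1120.2, 1294.0 and 1159.9 normalised reads in knockdown, against 1348.5, 978.2 and 1134.5 in WT. The groups overlapped, and the WT libraries spanned the knockdown ones. The difference of 0.05 (SE 0.13) had a 95% interval of −0.25 to 0.35 (limma, adjusted p = 0.863).

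APC2, the paralog of APC found mainly in the nervous system, fell to 238 ± 12.3 normalised reads in knockdown, against 445 ± 59.8 in WT (SD, n = 3 each), 1.87-fold lower. It lies on the plus strand of chromosome 19 at 1446302 to 1473244. The libraries had 245.9, 245.2 and 224.3 in knockdown, against 434.9, 509.0 and 390.7 in WT. The groups were well separated and the knockdown libraries were close to each other. The difference was −0.69 (SE 0.13, 95% interval −0.98 to −0.40, limma adjusted p = 0.0230). The call held in 10 of 15 alternative fits and was lost without knockdown 1, 2 or 3 (limma, adjusted p = 0.0914, 0.0702 and 0.102), without WT 2 (0.0632) and with a block for the replicate number (0.0505). APC2 overlaps C19orf25 and the antisense transcript AC027307.2 on the other strand, and without a stated use of strand their reads cannot be told apart. C19orf25 averaged 1038 normalised reads in knockdown and 996 in WT, and AC027307.2 averaged 107 in knockdown and 136 in WT. Among 250 tested genes within 10 Mb the median difference was 0.02, and 3 lay below APC2.

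APC, the scaffold most often lost in colorectal cancer, was lower in every knockdown library but did not pass. It lies on the plus strand of chromosome 5 at 112707498 to 112846239. It had 1251.7, 1532.9 and 1411.0 normalised reads in knockdown, against 1954.7, 1683.3 and 1984.1 in WT. The groups did not overlap, with knockdown 2 and WT 2 nearest to each other. The difference was −0.40 (SE 0.12, 95% interval −0.67 to −0.13), and knockdown held 74.6% of the WT mean (limma, adjusted p = 0.0961, range over 15 alternatives 0.0643 to 0.308). Of 44 tested genes within 10 Mb, 2 lay below APC, and their median was −0.02. The annotated gene AC008575.1 overlaps APC on the same strand, and its part in the APC reads was not tested.

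AXIN1 and AXIN2 are the axin scaffolds, AXIN1 made in most cells and AXIN2 a β-catenin target. AXIN1 (chromosome 16, 287440 to 352673, minus strand) had 3065.1, 2887.3 and 3177.3 normalised reads in knockdown, against 3702.9, 2957.9 and 3051.1 in WT. AXIN2 (chromosome 17, 65528563 to 65561647, minus strand) had 455.4, 451.5 and 402.4 in knockdown, against 610.6, 563.8 and 417.6 in WT. In both genes the groups overlapped, and WT 1 was the highest library. The differences were −0.08 (SE 0.12, 95% interval −0.35 to 0.19, limma adjusted p = 0.743) for AXIN1 and −0.22 (SE 0.14, interval −0.54 to 0.10, adjusted p = 0.405) for AXIN2. The annotated gene AC004805.1 overlaps AXIN2 on the same strand, and its part in the AXIN2 reads was not tested. The surroundings of AXIN2 were lower as a whole. Of 143 tested genes within 10 Mb of AXIN2, 130 were lower in knockdown, with a median of −0.35, and 105 lay below AXIN2. The part of this region in the AXIN2 value was not tested.

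GSK3A and GSK3B are the paralogous kinases that mark β-catenin for ubiquitination. GSK3A (chromosome 19, 42230186 to 42242625, minus strand) had 1382.3, 1223.6 and 1323.1 normalised reads in knockdown, against 1320.7, 1323.2 and 1410.8 in WT. GSK3B (chromosome 3, 119821323 to 120094417, minus strand) had 1737.5, 1672.5 and 1637.4 in knockdown, against 1940.0, 2340.5 and 1912.8 in WT. GSK3A overlapped between the groups, whereas every knockdown library was below every WT library for GSK3B. The differences were −0.04 (SE 0.11, 95% interval −0.28 to 0.20, limma adjusted p = 0.857) for GSK3A and −0.27 (SE 0.12, interval −0.53 to −0.02, adjusted p = 0.203) for GSK3B, so neither passed. The annotated gene AC006486.1 overlaps GSK3A on the same strand, and its part in the GSK3A reads was not tested.

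CSNK1A1, casein kinase 1α, primes β-catenin for GSK3. It spans 149492197 to 149551552 of chromosome 5 on the minus strand and had 3066.1, 2808.1 and 3177.3 normalised reads in knockdown, against 3355.9, 3035.5 and 3070.2 in WT. The groups overlapped (difference −0.06, SE 0.11, 95% interval −0.31 to 0.18, limma adjusted p = 0.789). Its retrocopy CSNK1A1L had at most 5.03 normalised reads in any library. The transcript AC021078.1 overlaps CSNK1A1 on the same strand and averaged 122 normalised reads in knockdown and 131 in WT.

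CTNNB1, β-catenin itself, is on the plus strand of chromosome 3 at 41194741 to 41260096. It had 12291.7, 11068.8 and 11585.5 normalised reads in knockdown, against 10385.3, 13386.3 and 11224.8 in WT. The WT libraries spanned the knockdown ones. The means were 11649 ± 614 in knockdown and 11665 ± 1548 in WT (SD, n = 3 each), and the difference of 0.00 (SE 0.14) had a 95% interval of −0.30 to 0.30 (limma, adjusted p = 0.989). ULK4 overlaps CTNNB1 on the other strand and averaged 117 normalised reads in knockdown and 147 in WT. These are mRNA levels, and the complex acts on the protein, which was not measured.

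**Figure D2:**
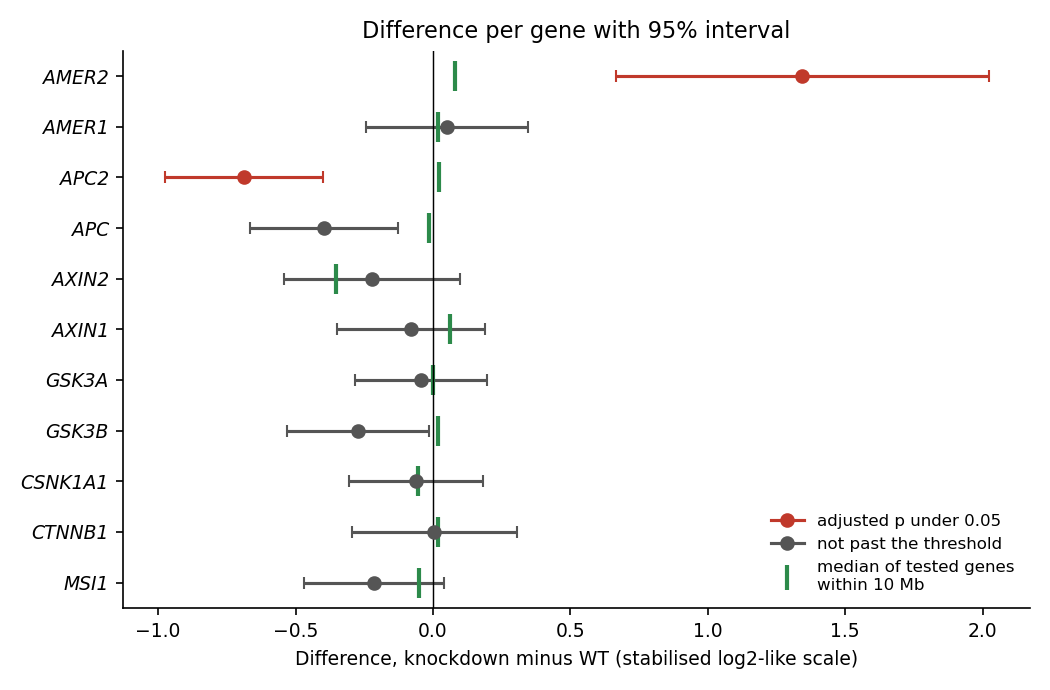
Difference between knockdown and WT on the stabilised log2-like scale for the 10 genes and MSI1, with 95% intervals from the model and, as green ticks, the median difference of the tested genes within 10 Mb. AMER2 at 1.34 and APC2 at −0.69 passed the threshold, and the tick of AXIN2 stands at −0.35.

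Paralog pairs were compared within libraries, which asks whether one partner moved differently from the other. The ratio of AMER2 to AMER1 in normalised reads was 0.58, 0.76 and 0.45 in knockdown, against 0.30, 0.22 and 0.089 in WT. Every knockdown ratio was above every WT ratio. On the stabilised scale the ratio moved by 1.29 (exact permutation test, two-sided, p = 0.1, the smallest p that 3 against 3 libraries allow, and 0.267 adjusted over 4 pairs). The ratio of APC2 to APC was 0.172 ± 0.0214 in knockdown and 0.241 ± 0.055 in WT (SD, n = 3 each). The groups were close, with knockdown 1 at 0.196 and WT 3 at 0.197, and overlapped on the stabilised scale (−0.29, exact permutation p = 0.2, adjusted p = 0.267). AXIN2 to AXIN1 was 0.144 ± 0.0154 in knockdown and 0.164 ± 0.0269 in WT (−0.14, exact permutation p = 0.4, adjusted p = 0.4, n = 3 each). GSK3A to GSK3B was 0.778 ± 0.041 in knockdown and 0.661 ± 0.0878 in WT (0.23, exact permutation p = 0.2, adjusted p = 0.267, n = 3 each). None of the 4 pairs could pass a threshold of 0.05 in this design.

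**Figure D3:**
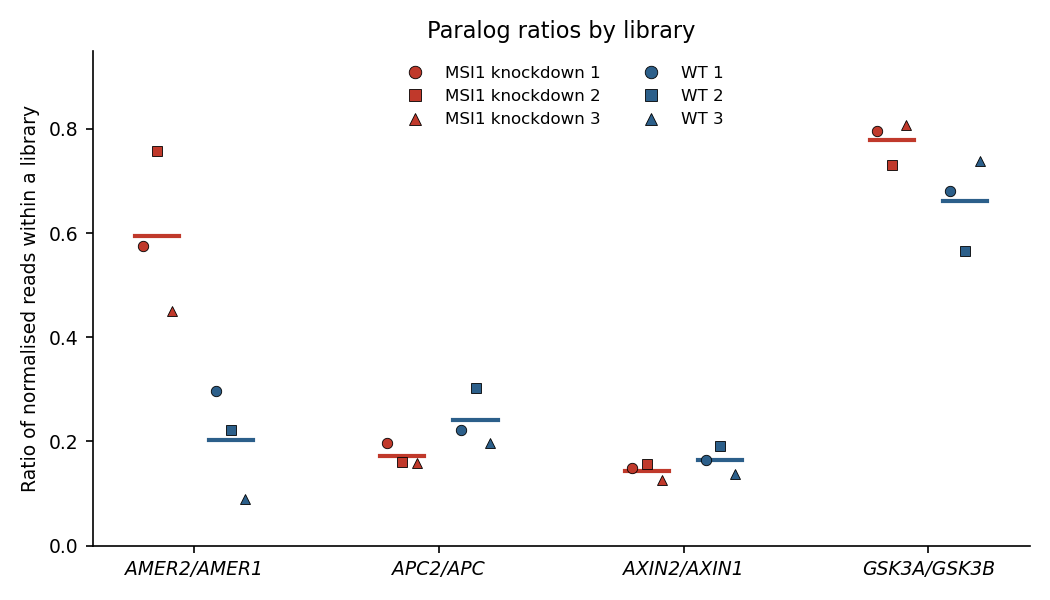
Ratio of normalised reads between paralogs within each library, knockdown left of WT; points are libraries and bars are group means. The AMER2 to AMER1 ratio is 0.45 to 0.76 in knockdown and 0.089 to 0.30 in WT, and the other 3 pairs lie close together or overlap.

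Levels were put per length of annotated exon and per library total (RPKM) to order the genes. CTNNB1 was the highest, with 39.8 ± 1.61 RPKM in knockdown and 40.8 ± 5.85 in WT. AXIN1 followed with 16.6 ± 0.35 RPKM in knockdown and 17.96 ± 1.70 in WT, and CSNK1A1 with 15.9 ± 0.56 in knockdown and 17.0 ± 0.86 in WT. These neighbours in the order overlapped in both groups. GSK3A had 12.9 ± 0.55 RPKM in knockdown and 13.7 ± 1.40 in WT, and GSK3B had 8.42 ± 0.36 in knockdown and 10.5 ± 1.17 in WT. AMER1 had 5.76 ± 0.60 RPKM in knockdown and 5.68 ± 0.83 in WT, and APC had 4.59 ± 0.56 in knockdown and 6.29 ± 0.80 in WT. Their order differed between the groups, APC overlapping AMER1 in WT and lying below it in knockdown. AXIN2 had 3.41 ± 0.30 RPKM in knockdown and 4.20 ± 0.55 in WT. AMER2 and APC2 were the lowest, with AMER2 above APC2 in every knockdown library and the order not separable in WT. AMER2 had 2.77 ± 1.00 RPKM in knockdown and 0.92 ± 0.54 in WT, and APC2 had 0.77 ± 0.056 in knockdown and 1.46 ± 0.16 in WT (SD, n = 3 for each value). AMER2 overlapped AXIN2 in knockdown and APC2 in WT. Exon lengths are unions over all annotated transcripts, which understates genes with many of them.

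Genes whose profile over the 6 libraries was most like that of AMER2 were sought among 10859 well-expressed genes by Pearson's r on the stabilised scale. They were ETFB, a subunit of the mitochondrial electron transfer flavoprotein (r = 0.997), FAM78A (0.995), PDE6A, the rod photoreceptor phosphodiesterase α subunit (0.993), ITPRIPL1 (0.992) and PELI3, an E3 ubiquitin ligase (0.991). These are the highest values of that search, each over 6 points. The points share 2 groups and the libraries' depth, so these values describe the libraries and carry no test. PDE6A had 868.2, 1159.4 and 790.8 normalised reads in knockdown, against 729.2, 416.9 and 288.6 in WT, in the same order of libraries as AMER2. Its difference was 0.90 (SE 0.24, limma adjusted p = 0.0691), and it passed in 4 of 15 alternatives, among them without WT 1 (0.0177). ETFB moved little (0.12, adjusted p = 0.582), and the other 3 had adjusted p of 0.0961 to 0.243. Among the 9 other members, r to AMER2 ran from −0.73 for APC2 to 0.48 for AMER1.

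Around the complex, 6 of 73 other tested Wnt and β-catenin pathway genes were called, 4 higher and 2 lower. This was 8.22%, against 4.10% of all tested genes, and the median difference was 0.06. These lists were chosen with earlier results of these data known, so this share is not evidence about the pathway. Groups did not overlap for 19 of the 73, against 27.8% of all tested genes. The count of called genes was 11 with library weights and 3 with the replicate block. It was 1 without knockdown 1, 2 without knockdown 2, 2 without knockdown 3 and 2 without WT 2. Of 28 tested partners and regulators of the complex, 1 fell and none rose (median 0.01). CSNK1D, casein kinase 1δ, which phosphorylates Dishevelled, had 3606.5, 3145.1 and 3082.8 normalised reads in knockdown, against 4265.1, 4824.1 and 4933.9 in WT (difference −0.50, SE 0.12, limma adjusted p = 0.0448). It lies on chromosome 17, where 145 of 164 tested genes within 10 Mb were lower (median −0.29), and its call held in 6 of 15 alternatives, lost without knockdown 1, 2 or 3 (adjusted p = 0.109, 0.132 and 0.194), WT 2 (0.105) or WT 3 (0.0792). It was also lost with the replicate block (0.104), quantile normalization (0.0575), no variance trend (0.0565) and no filter (limma, adjusted p = 0.0560). Others in the group did not pass: PPP2R5A, a regulatory subunit of phosphatase 2A (−0.52, adjusted p = 0.134), RBX1, the RING subunit of the ubiquitin ligase that takes up phosphorylated β-catenin (0.38, adjusted p = 0.0877), and DVL1, a Dishevelled protein (0.38, adjusted p = 0.09996).

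Of 16 tested transcription factors and cofactors of β-catenin, 1 rose and none fell (median 0.13), where 4.10% of all tested genes were called. TLE1, a Groucho-type corepressor of TCF factors, had 1786.0, 1745.4 and 1401.4 normalised reads in knockdown, against 844.8, 852.1 and 893.4 in WT. The knockdown libraries were all well above WT, and the ratio of means was 1.90 (difference 0.85, SE 0.12, limma adjusted p = 0.0081). TLE1 passed in 14 of 15 alternatives and missed the threshold without knockdown 1 (0.0594). TCF7L1, a TCF factor that acts mostly as a repressor, had a difference of 0.56 (SE 0.17, adjusted p = 0.0887), and CTNNBIP1, which blocks β-catenin from binding TCF, 0.42 (SE 0.16, adjusted p = 0.165). TLE4 had −0.35 (adjusted p = 0.254). LEF1 averaged 0 normalised reads in knockdown and 0.51 in WT.

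Of 12 tested β-catenin target genes, AXIN2 included, 1 rose and none fell (median 0.26), and 9 of the 21 in the table lay below the filter. APCDD1, a membrane inhibitor of Wnt signalling, had 1061.5, 1195.9 and 892.8 normalised reads in knockdown, against 704.3, 670.4 and 422.9 in WT. The groups did not overlap (difference 0.73, SE 0.18, limma adjusted p = 0.0470), though the call held in 9 of 15 alternatives, lost without knockdown 1, 2 or 3 (0.173, 0.147 and 0.0905), WT 2 (0.0710) or WT 3 (0.0680), or with no variance trend (0.0526). BAMBI, a decoy receptor of the TGF-β family, had a difference of 0.84 (SE 0.25, limma adjusted p = 0.0920). It passed in 3 of 15 alternatives, among them without WT 3 (0.0205, difference 1.12). TNFRSF19, a receptor of the tumour necrosis factor family, had 46.5, 148.4 and 51.5 normalised reads in knockdown, against 20.5, 30.3 and 19.96 in WT. Knockdown 2 stood far above the others, and the difference of 0.67 (SE 0.21, limma adjusted p = 0.107) was 0.39 without it and 1.51 with voom on recovered reads. LGR5, the R-spondin receptor, had 0.58 (SE 0.22, adjusted p = 0.167).

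Of 7 tested adhesion partners, which hold the other pool of β-catenin at cell junctions, 1 rose and 1 fell (median −0.05). Over all tested genes 4.10% were called. This list too was chosen with earlier results of these data known, so its share is not evidence about adhesion. CDH2, N-cadherin, had 2095.7, 1378.3 and 2009.8 normalised reads in knockdown, against 5723.4, 5394.2 and 3947.6 in WT. All knockdown libraries were below all WT libraries (difference −1.41, SE 0.18, limma adjusted p = 0.00656), and CDH2 passed in each of 15 alternatives. VCL, vinculin, which links catenins to actin, had 7105 ± 491 in knockdown and 4773 ± 544 in WT (SD, n = 3 each). VCL rose by 0.57 (SE 0.13, adjusted p = 0.0377), a call held in 9 of 15 alternatives and lost without knockdown 1, 2 or 3 (0.109, 0.122 and 0.146), WT 2 (0.0656) or WT 3 (0.0649), or with the replicate block (0.0826). CDH11, a cadherin of mesenchymal cells, had −0.60 (SE 0.35, adjusted p = 0.343), and −1.10 without WT 3, where it passed (0.0135). JUP, plakoglobin, the close relative of β-catenin, had −0.18 (adjusted p = 0.484). It lies on chromosome 17, where 208 of 233 tested genes within 10 Mb were lower (median −0.36) and 173 lay below JUP. The part of this region in the JUP value was not tested.

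Of 12 tested Wnt receptors, co-receptors and surface regulators, 1 rose and none fell (median −0.07), where 4.10% of all tested genes were called. LRP5, a Wnt co-receptor, had 3447.6, 3142.6 and 3130.0 normalised reads in knockdown, against 2405.6, 2297.6 and 2140.7 in WT. The groups were clearly apart (difference 0.49, SE 0.11, limma adjusted p = 0.0383), and the call held in 8 of 15 alternatives, lost without knockdown 1, 2 or 3 (0.173, 0.0969 and 0.135), WT 2 (0.0808) or WT 3 (0.0680), with the replicate block (0.0837) or with no filter (0.0527). FZD7, the most abundant Frizzled receptor here by normalised reads, averaged 10832 ± 1194 in knockdown and 7659 ± 581 in WT (SD, n = 3 each; difference 0.49, SE 0.13, limma adjusted p = 0.0637). FZD4 had 0.39 (adjusted p = 0.315) and FZD6 0.30 (adjusted p = 0.222). By sign 5 of the 12 were higher and 7 lower. The largest differences among the lower ones were FZD5 (−0.28, limma adjusted p = 0.287), FZD3 (−0.26, 0.362) and LRP6 (−0.25, 0.254).

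**Figure D4:**
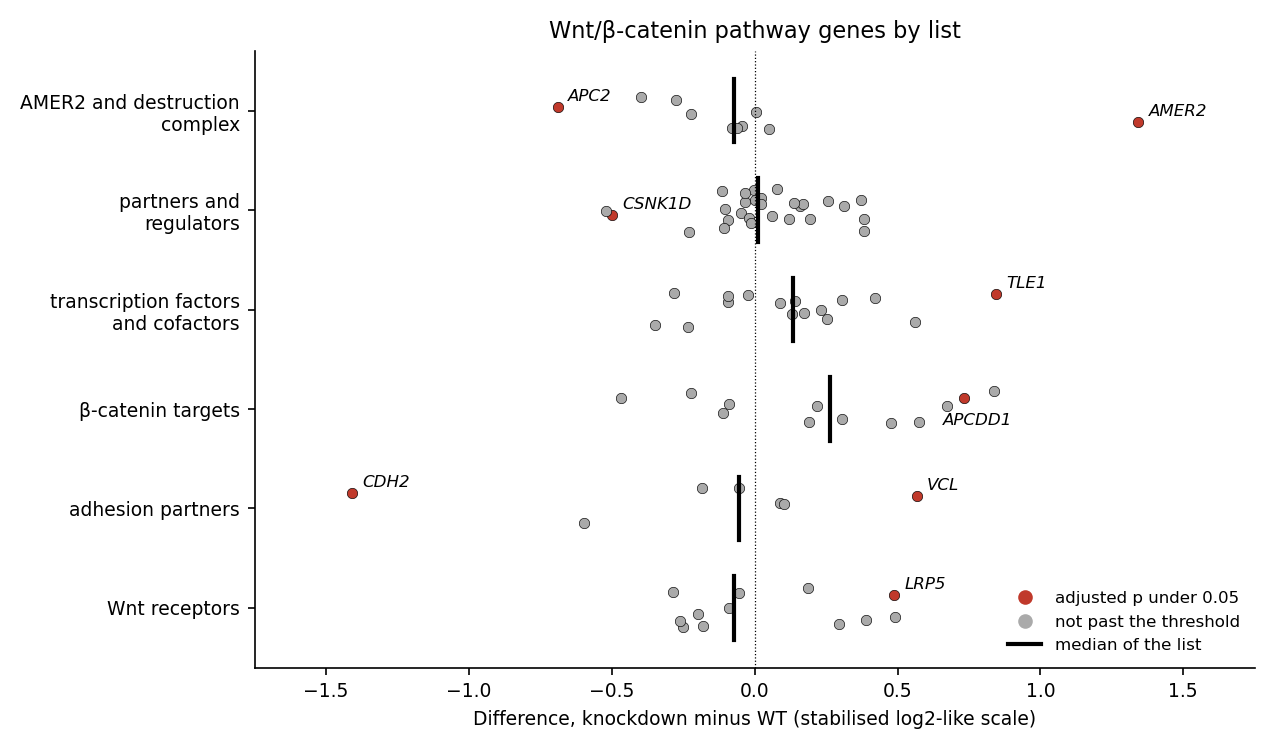
Difference between knockdown and WT on the stabilised log2-like scale for each tested gene of 6 lists, with red points past the threshold and bars at the list medians; vertical scatter within a row has no meaning. CDH2 at −1.41 and AMER2 at 1.34 lie farthest out, and most genes lie between −0.6 and 0.6.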

How the data were processed

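RNA sequencing had been run on 3 knockdown and 3 WT libraries. The submitters' processing notes name the build GRCh38 and list, without their roles, STAR and DESeq, with CASAVA 1.8.2, MultiQC, FastQC and Trim Galore. How reads were counted, on which annotation and whether by strand was not given in the sources used here. The deposited values are variance-stabilised, log2-like values that the authors had normalised per library, going by the file's name. Knockdown columns are headed as such, and the other 3, under a heading the labels do not explain, were taken as WT by elimination.

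Inverting the stabilising function (offset 55.2) gave normalised reads, and 100% of values became whole reads (tolerance 0.01) after 1 size factor per library. Ratios and means use these reads; differences use the deposited scale, which understates changes of weak genes. Genes were tested where the mean was at least 1 above the lowest value (27.6 normalised reads), with limma 3.58.1 in R 4.3.3 (empirical Bayes, variance trend, two-sided) and Benjamini-Hochberg adjustment over 13558 genes at 0.05; the test was also run on simulated data. An exact permutation test of 3 against 3 cannot go below 0.1.

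Members and lists were chosen with earlier results of these data known. Named genes are the 10 members and MSI1, the called genes of each list plus the largest differences up to 4, and the 5 genes nearest to AMER2 by r; OTX2, MYC, NPR3, SNCAIP and other markers serve the check of the label, 1 marker list is not reported here, and LEF1 was named, and the sequence and neighbour descriptions were added, after values were seen. RPKM used GENCODE 29 exon unions matched by name. Alternatives were 2 filters, 2 scalings, 2 variance models, a replicate block, library weights, voom on recovered reads and each library left out.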

Additional observations from a re-analysis of the deposited data

How the results depend on the processing

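Differences of AMER2, APC2, APC, AXIN2, GSK3B, CSNK1A1 and MSI1 kept their direction in all 15 alternatives. AMER2 was 1.34 and lost its call with a robust variance estimate, and ran from 1.00 to 1.68 with a library left out. APC2 was −0.69 and lost its call with the replicate block, and ran from −0.76 to −0.61 with a library left out. Members called were 1 with a robust variance, 1 with the replicate block and 0 to 2 with a library left out. Genes called over all 13558 were 1213 with library weights, 221 with the replicate block and 56 to 726 with a library left out, against 556. Pathway genes called were 11 with library weights, 3 with the replicate block and 1 to 7 with a library left out. The cause was not tested, other than that fits without a library have fewer samples.

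Members near 0 changed sign. CTNNB1 was −0.0105 with median centring and −0.0505 with library weights, and ran from −0.0742 to 0.107 with a library left out. In the same way AMER1 ran from −0.0524 to 0.16, AXIN1 from −0.14 to 0.0170 and GSK3A from −0.0799 to 0.0014. The 4 paralog ratios kept their direction in all 8 alternatives. Whether the replicate numbers pair the libraries is not given by the labels. Deviations of same-numbered libraries correlated with r of −0.0045, −0.25 and 0.0046 over tested genes. Those of differently numbered libraries ran from −0.14 to 0.18. With 3 libraries per group these values cannot settle whether the libraries are paired. Scalings moved the median of all genes by under 0.1.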
